A study of Mus musculus with 96 samples.

Results

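The liver X receptors (LXRs) and a set of genes that they are known to activate were followed over the day in mouse hepatocytes and liver macrophages. The 8 genes were taken by name: the receptors Nr1h3 (LXRα) and Nr1h2 (LXRβ), the sterol exporters Abca1, Abcg1, Abcg5 and Abcg8, and 2 further targets, Mylip and Lpcat3. They are 8 of the 25095 gene symbols in each of 4 tables, and all 8 exceeded the minimum level for testing in every table. That minimum was 5 RPKTM, which is RPKM multiplied by 10, in at least 3 libraries. It left 13326 genes in the hepatocyte table and 13947 in the macrophage table of Control, RevDKO and RevScapTKO, and 12724 and 13930 in the ScapKO tables.

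LXRs are nuclear receptors that bind oxysterols, oxidized forms of cholesterol, and desmosterol, a late intermediate of cholesterol synthesis. As partners of RXR they switch on genes that lower cellular cholesterol: ABCA1 and ABCG1 pass cholesterol to lipoproteins, the ABCG5 and ABCG8 pair secretes sterols into bile, MYLIP (also called IDOL) marks lipoprotein receptors for breakdown, and LPCAT3 places polyunsaturated fatty acids into phospholipids. SREBPs, which the escort protein SCAP delivers for activation, switch on cholesterol and fatty acid synthesis and act in the opposite direction on the sterol supply. REV-ERBs, encoded by Nr1d1 and Nr1d2, are repressors of the circadian clock.

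The 96 libraries came from male C57BL/6J mice that ate a diet high in fat and sucrose (D12492i) for 4 weeks. Mice with floxed alleles received, at 8 weeks of age, an adeno-associated virus whose hepatocyte promoter TBG drives GFP (Control) or Cre. Cre was meant to delete Nr1d1 and Nr1d2 (RevDKO), these genes and Scap (RevScapTKO), or Scap alone (ScapKO). All groups carried floxed alleles, received such a virus and ate this diet. The promoter directs deletion to hepatocytes, so macrophages, which comprise resident Kupffer cells and monocyte-derived cells, are read as neighbours of the edited cells. Each genotype and cell type had 3 libraries at each of ZT4, ZT10, ZT16 and ZT22, where ZT counts hours after lights on and lights went off at ZT12, giving 12 libraries for each of the 8 combinations. The study asked whether SREBP signaling in hepatocytes that lack REV-ERBs reaches other cells of the liver.

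Several facts about the libraries touch the results below. The hepatocyte libraries labelled RevDKO and RevScapTKO did not hold less Nr1d1 than Control (1.55 and 1.79 log2 units more, limma adjusted p 8.87e-05 and 2.13e-06), nor less Nr1d2 (0.62 and 0.95 more, adjusted p 0.0626 and 0.000318). These differences are averages of log2 values over the day. Nr1d1 ranged from 3.57 to 358 RPKTM in Control, 39.9 to 359 in RevDKO and 51.2 to 231 in RevScapTKO hepatocytes. A value over a whole transcript does not show whether single exons were deleted, so RevDKO and RevScapTKO here mean the libraries so labelled. Scap followed its labels, with 495 ± 73.1, 537 ± 109 and 209 ± 63.5 RPKTM in Control, RevDKO and RevScapTKO hepatocytes (SD, n = 12 each). Alb and the macrophage genes Adgre1, Clec4f, Csf1r and Vsig4 were above 0 in every library of the Control, RevDKO and RevScapTKO tables, and Cd68 was listed at 0 in the lowest ScapKO hepatocyte library. The summed level of 10 macrophage markers in the hepatocyte libraries ranged from 178.9 to 2304 RPKTM in Control, 308 to 1852 in RevDKO and 718 to 4546 in RevScapTKO, and all 10 were higher in RevScapTKO than in either other genotype (median 1.08 log2 units above RevDKO). Of 6 endothelial and 6 stellate cell markers, 4 and 5 were also higher in RevScapTKO than in RevDKO hepatocytes. In the macrophage libraries the macrophage marker sum had medians of 12720, 6758 and 7210 RPKTM in Control, RevDKO and RevScapTKO with ranges that overlapped, and 0 of the 10 markers were called in any contrast by limma. That sum also rose over the day in Control hepatocytes, from a median of 350.4 at ZT4 to 1880.0 at ZT22. In the macrophage table, 3 libraries had more than 5% of their summed signal in the hepatocyte gene Alb: Control at ZT16 replicate 1, Control at ZT22 replicate 1 and RevScapTKO at ZT22 replicate 3. These are called rich in Alb below. Quantile normalization gives every library the same set of values, so this share follows the rank of Alb and does not measure an amount of RNA. The macrophage marker sums of these 3 libraries were 14540, 24350 and 5187 RPKTM in the order given. Hepatocyte markers were present in the other libraries too. The summed level of 10 hepatocyte markers in the macrophage libraries had medians of 85270, 68790 and 83670 RPKTM in Control, RevDKO and RevScapTKO. These lay above the medians of the macrophage marker sum, but Alb alone had medians of 73350, 53330 and 73350 RPKTM there. Sums over unlike genes do not compare the amounts of RNA from the 2 cell types. In bulk samples, fewer cells of a type and less RNA per cell cannot be told apart.

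These 3 stretches of sequence show the members on which the results turn. Abcg5 (mm9 chr17:85057514-85082351, minus strand) and Abcg8 (mm9 chr17:85082461-85099673, plus strand) start back to back. The 109 bases between their transcript starts, mm9 chr17:85082352-85082460 on the plus strand, are printed because this pair moved together in the results.
Abcg5 to Abcg8: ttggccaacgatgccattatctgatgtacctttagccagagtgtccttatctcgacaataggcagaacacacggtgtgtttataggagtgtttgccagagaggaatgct
The next 2 are the 250 bases before the start of Abca1, the best expressed member (GRCm38.p6 chr4:53159896-53160145, minus strand), and of Lpcat3, the member with the strongest response to genotype (GRCm38.p6 chr6:124662854-124663103, plus strand), from RefSeq. Capitals mark CACGTG, an E-box of the kind that clock activators and SREBPs can bind, and TGACCGGTAGTAACC, which on the other strand reads GGTTA and GGTCA spaced by 5 bases and resembles the spaced repeat that LXR and RXR bind.
Abca1: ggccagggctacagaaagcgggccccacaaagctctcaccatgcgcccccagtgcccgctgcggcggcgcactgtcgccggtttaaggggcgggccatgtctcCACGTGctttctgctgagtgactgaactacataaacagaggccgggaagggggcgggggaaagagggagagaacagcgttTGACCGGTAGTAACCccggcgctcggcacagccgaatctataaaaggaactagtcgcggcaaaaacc
Lpcat3: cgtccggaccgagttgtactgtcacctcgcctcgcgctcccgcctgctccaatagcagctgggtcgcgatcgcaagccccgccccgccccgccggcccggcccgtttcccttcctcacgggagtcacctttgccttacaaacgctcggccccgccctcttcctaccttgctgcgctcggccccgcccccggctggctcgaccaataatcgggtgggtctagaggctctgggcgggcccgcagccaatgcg
In Abca1 the marked stretches began 147 and 67 bases before the start. The search covered 5 motifs on both strands, and matches may overlap: GGTTA and GGTCA spaced by any 5 bases, chosen after the sequences had been read, were in 0.0457% of 32851 RefSeq promoters of this length, the LXR repeat DR4 in 0.195%, the single receptor site AGGTCA in 14.02%, the SREBP site TCACNCCAC in 1.05% and CACGTG in 6.02%. The windows of the other members and the stretch between Abcg5 and Abcg8 held none of these letters. Abcg1 had no entry in the promoter table.

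The receptor genes were not called different between Control and RevDKO in either cell type. Nr1h3 (NM_013839, mm9 chr2:91024218-91035192, minus strand), the LXR of highest level in both cell types here, measured between 125.8 and 308.5 RPKTM (median 196) in Control hepatocytes, 141 and 244 (median 199) in RevDKO and 148.5 and 264 (median 202.5) in RevScapTKO. The groups overlapped throughout, and its differences lay between -0.01 and 0.05 log2 units (95% intervals from -0.21 to 0.26, limma adjusted p from 0.739 to 0.981). In macrophages it measured 241 ± 89.1, 211 ± 66.1 and 236 ± 66.4 RPKTM in Control, RevDKO and RevScapTKO (SD, n = 12 each), again with overlapping ranges and no call.

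Nr1h2 (mm9 chr7:51804986-51809335, minus strand) was lower than Nr1h3 per length. In hepatocytes it ranged from 32.4 to 67.0 RPKTM (median 45.3) in Control, 21.7 to 56.3 (median 38.2) in RevDKO and 23.2 to 47.5 (median 35.3) in RevScapTKO. It fell by 0.37 log2 units from Control to RevScapTKO (SE 0.12, limma adjusted p 0.0139), with 5 of 12 RevScapTKO libraries below every Control library. The Control to RevDKO difference was -0.30 (SE 0.12, adjusted p 0.163). With the mean macrophage marker level as a covariate the RevScapTKO value was -0.51 (adjusted p 0.0657) and no longer called. Since these markers were higher in RevScapTKO hepatocytes, this fit, here and below, cannot separate marker level from genotype in hepatocytes. In macrophages Nr1h2 ranged from 18.9 to 40.6 RPKTM in Control and from 7.01 to 90.8 in RevDKO, the widest spread of the member in any group of that table, and no genotype difference was called.

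Lpcat3 (NM_145130, mm9 chr6:124613122-124654734, plus strand) gave the clearest genotype difference. In hepatocytes it ranged from 324.6 to 509.6 RPKTM (median 387) in Control, 257 to 409 (median 315.5) in RevDKO and 90.8 to 181.5 (median 133) in RevScapTKO. All 12 RevScapTKO libraries lay below every library of both other genotypes. RevScapTKO minus RevDKO came to -1.27 on the log2 scale (SE 0.09, adjusted p by limma 1.11e-12), a 2.42-fold lower level present at all 4 time points, and that from Control -1.50 (SE 0.09, adjusted p 1.43e-14). Of all 13326 genes, 26.2% were called between RevScapTKO and RevDKO and 35.9% between RevScapTKO and Control. With the macrophage marker covariate Lpcat3 was still lower, by -1.08 (adjusted p 4.70e-08) and -1.295 (adjusted p 1.43e-09), and it was the only member called in these contrasts in that fit. Of all 13326 genes that fit called 350 and 813 in the same contrasts.

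Lpcat3 was also lower in RevScapTKO macrophages, the cells that the Cre virus was not directed to. It ranged from 38.3 to 109.7 RPKTM (median 58.9) in Control, 34.1 to 123 (median 60.5) in RevDKO and 16.3 to 64.5 (median 30.4) in RevScapTKO. The RevScapTKO range overlapped the others, but 7 of its 12 libraries lay below every RevDKO library and 9 below every Control library. The differences were -0.92 log2 units from RevDKO (SE 0.18, adjusted p 0.00214) and -0.85 from Control (SE 0.18, adjusted p 0.00464), where 3% and 3.76% of 13947 genes were called. Since hepatocyte RNA was present in these libraries, the fits were repeated with covariates: with mean hepatocyte marker level the values were -1.03 (adjusted p 0.000884) and -0.88 (adjusted p 0.00136), and with mean macrophage marker level -0.92 (adjusted p 0.00108) and -0.84 (adjusted p 0.00464). Without the 3 libraries rich in Alb they were -0.89 (adjusted p 0.00523) and -0.90 (adjusted p 0.00889). The hepatocyte marker covariate follows the amount of hepatocyte RNA, and Lpcat3 was itself lower in RevScapTKO hepatocytes. These fits cannot remove a difference that such RNA carries, and its part in the macrophage values was not tested.

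Lpcat3 shares 347 bases with the gene Emg1 on the opposite strand, and whether counting used the strand is not given in the sources used here. Emg1 measured 74.1 ± 8.52, 64.5 ± 8.44 and 56.6 ± 11.9 RPKTM in the hepatocytes of Control, RevDKO and RevScapTKO (SD, n = 12 each). Emg1 was lower in RevScapTKO than in Control by -0.40 log2 units (SE 0.11, adjusted p 0.00432), and its difference from RevDKO was -0.20 (SE 0.11, adjusted p 0.168). The part of this overlap in the Lpcat3 values was not tested.

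**Figure D1:**
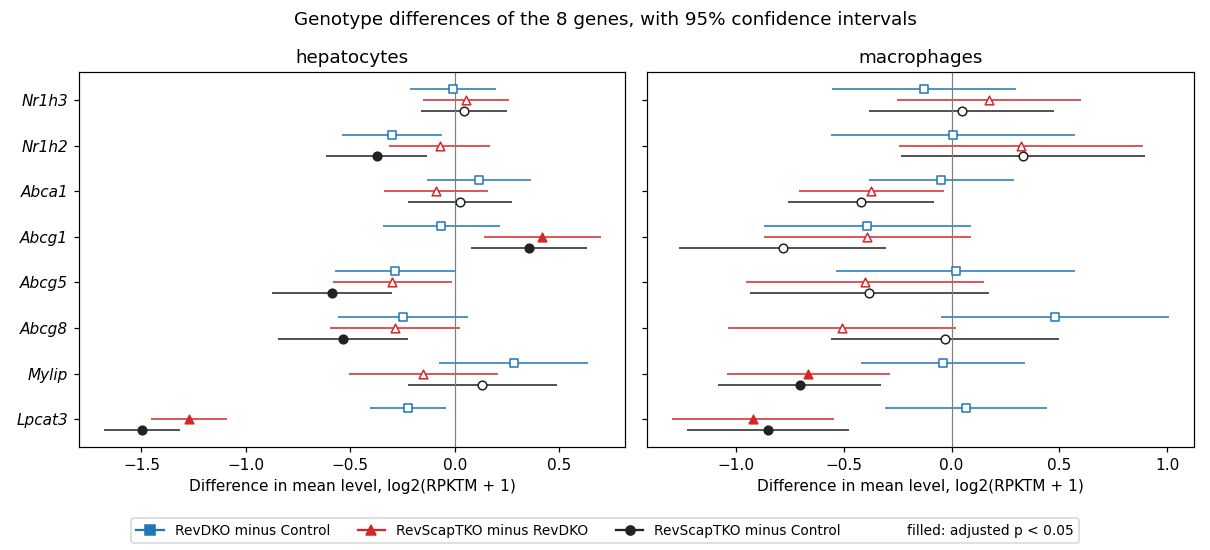
Differences in mean level over the 4 time points for the 8 genes, on the log2(RPKTM + 1) scale (horizontal axis), in hepatocytes (left) and macrophages (right). Points are limma estimates, bars are 95% confidence intervals and filled points have an adjusted p under 0.05. Lpcat3 stands at -1.27 and -1.50 in RevScapTKO hepatocytes, and no point of RevDKO minus Control is filled.

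Of the exporters, Abca1 and Abcg1 hand cholesterol to lipoproteins. Abca1 (NM_013454, mm9 chr4:53043661-53172767, minus strand) was among the best expressed genes of both cell types, ranking 111 of 13326 in hepatocytes and 116 of 13947 in macrophages. In hepatocytes it ranged from 2288 to 4509 RPKTM (median 2937) in Control, 1650 to 3986 (median 3441) in RevDKO and 1870 to 4313 (median 3015) in RevScapTKO. These ranges overlapped almost fully, and the 3 differences lay between -0.09 and 0.12 log2 units (95% intervals from -0.34 to 0.37, limma adjusted p from 0.614 to 0.897).

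In macrophages Abca1 ranged from 480 to 1265 RPKTM (median 943.5) in Control, 594 to 1169 (median 889.7) in RevDKO and 381 to 1090 (median 685) in RevScapTKO. RevScapTKO had the lowest mean at all 4 time points, but the differences of -0.37 from RevDKO and -0.42 from Control (SE 0.17 each) were not called (adjusted p 0.215 and 0.166). With the hepatocyte marker covariate they were -0.54 and -0.46 and were called (adjusted p 0.0359 and 0.0454), and without RevScapTKO at ZT10 replicate 1 the difference from Control was -0.51 (adjusted p 0.0471).

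Abcg1 (NM_009593, mm9 chr17:31194639-31254926, plus strand) was called different between genotypes in hepatocytes alone, and there not with the macrophage marker covariate. In hepatocytes it ranged from 16.6 to 66.1 RPKTM (median 36.3) in Control, 21.1 to 66.6 (median 31.9) in RevDKO and 23.5 to 101 (median 52.9) in RevScapTKO. It was higher in RevScapTKO, by 0.42 log2 units over RevDKO (SE 0.14, limma adjusted p 0.0233) and by 0.35 over Control (SE 0.14, adjusted p 0.0427), although only 2 of 12 RevScapTKO libraries exceeded every library of either group. With the mean macrophage marker level of the same libraries as a covariate the values were -0.05 (adjusted p 0.937) and -0.14 (adjusted p 0.677). Direction and call were both lost. These markers were themselves higher in RevScapTKO (mean log2 level 6.685, against 5.522 in RevDKO and 5.453 in Control). Marker level and genotype thus cannot be told apart in this fit. Of the 36 fits that each left out 1 library, 14 lost the call against Control (largest adjusted p 0.0943, without Control at ZT16 replicate 1) and 4 that against RevDKO (largest 0.0547, without RevDKO at ZT16 replicate 2).

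In macrophages Abcg1 ranged from 84.8 to 351 RPKTM (median 230.0) in Control, 70.7 to 296 (median 159) in RevDKO and 66.7 to 241 (median 129) in RevScapTKO. The difference of -0.78 log2 units between RevScapTKO and Control (SE 0.24) had an adjusted p of 0.0556 and was not called. It was called in 5 fits that left out 1 library, most clearly without Control at ZT22 replicate 3 (-0.93, adjusted p 0.00685), the Control library with the lowest value, and also with the hepatocyte (-0.87, adjusted p 0.00109) and the macrophage marker covariate (-0.47, adjusted p 0.0115). Without the 3 libraries rich in Alb it was -0.58 (adjusted p 0.281). The cell types were not compared by a test, since their tables were normalized apart.

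Abcg5 (NM_031884) and Abcg8 (NM_026180), the pair that secretes sterols into bile, were high in hepatocytes and followed the time of day. Abcg5 in Control hepatocytes measured 424, 372 and 518 RPKTM at ZT4 and 472, 584 and 631 at ZT10. At ZT16 it measured 389.5, 194 and 189.6, and at ZT22 243, 193 and 194. Its 6 light phase libraries ranged from 372 to 631 and its 6 dark phase libraries from 189.6 to 389.5, so these phases overlapped only through the ZT16 library at 389.5. Abcg8 ranged from 527 to 718 in the light phase and from 180.1 to 477 in the dark phase of Control, with no overlap.

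The mean light phase level of both genes was lower in the other genotypes, as a description, since no contrast at single times was tested. At ZT10 Abcg5 measured 332.5, 267 and 241 RPKTM in RevDKO and 417, 258 and 302 in RevScapTKO, all below the lowest Control library at that time, 472. Light phase Abcg8 ranged from 301 to 489 RPKTM in RevDKO and 278 to 525 in RevScapTKO, against 527 to 718 in Control. The share of all genes with such gaps was not counted. Averaged over the day, RevScapTKO lay 0.59 log2 units below Control for Abcg5 (SE 0.14, limma adjusted p 0.00165) and 0.54 below for Abcg8 (SE 0.15, adjusted p 0.00683), at all 4 time points. The differences between RevDKO and Control, -0.29 (adjusted p 0.296) and -0.25 (adjusted p 0.434), were not called, nor were those between RevScapTKO and RevDKO, -0.30 (adjusted p 0.114) and -0.29 (adjusted p 0.166). The last were called without RevScapTKO at ZT16 replicate 1 (adjusted p 0.0226 and 0.0367), and for Abcg5 also without RevScapTKO at ZT22 replicate 3 (0.0398). With the macrophage marker covariate the differences from Control were -0.27 (adjusted p 0.460) and -0.25 (adjusted p 0.573) and no longer called.

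A test of the difference in daily rhythm, from the 24 h cosine and sine terms, gave Abcg5 a fitted peak-to-trough height of 1.64 log2 units in Control and 0.56 in RevDKO hepatocytes (adjusted p 0.174). This did not pass over all genes, of which 0.203% did in this contrast. It passed in a fit of only the 2 genotypes (adjusted p 0.0472), and with the macrophage marker covariate the heights were 0.96 and 0.59 (adjusted p 0.317). In the fits of all 36 libraries none of the 8 members passed any changed-rhythm test by limma. At an unadjusted p under 0.05, 4 members passed between RevDKO and Control in hepatocytes and 2 in macrophages, and between RevScapTKO and RevDKO these counts were 2 and 0. In the hepatocyte contrast of RevDKO with Control, 654 of 13326 genes reached that unadjusted p. Over all genes 0% were called in each of these other 3 contrasts, while the unadjusted p was under 0.05 for 674 genes (hepatocytes, RevScapTKO against RevDKO), 767 genes (macrophages, RevDKO against Control) and 498 genes (macrophages, RevScapTKO against RevDKO).

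Abcg5 and Abcg8 moved together from library to library. After removing the mean of each genotype and time point, their log2 levels over the 36 hepatocyte libraries had a Pearson r of 0.928 and a Spearman rho of 0.904 (2-sided permutation p 1e-05 each, the smallest that the permutations can give, and 3e-05 after adjustment over 3 pairs). Without the 2 libraries farthest from the median r was 0.861. Over the 12 means of genotype and time point, Abcg8 was the gene most like Abcg5 of the 13325 others (r 0.967), followed by Psme2 (r 0.919) and 9030025P20Rik (r 0.9005), given as a description without a test. Another annotated Abcg8 transcript overlaps Abcg5 by 6710 bases on the opposite strand. The Abcg8 transcript whose level was used here, NM_026180, overlaps no other gene, so that stretch lies outside it.

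**Figure D2:**
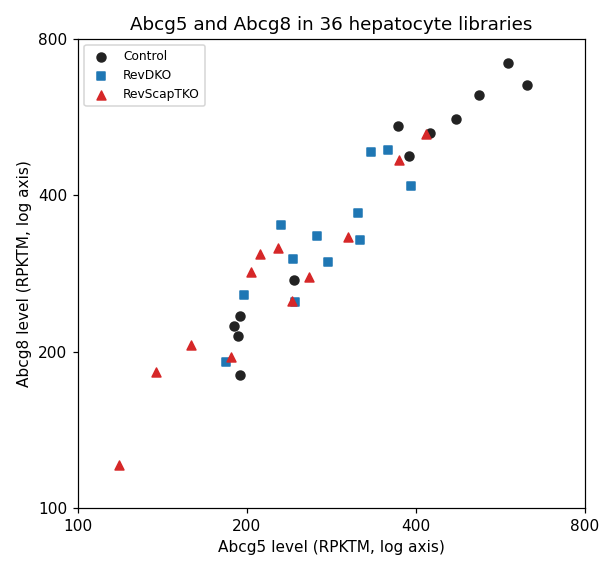
Level of Abcg8 (vertical axis) against Abcg5 (horizontal axis) in 36 hepatocyte libraries, both in RPKTM on log axes, 1 point per library and a symbol per genotype. The points follow a single band, and the upper end, above 500 RPKTM of both genes, holds Control libraries alone.

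Abca1 and Abcg1 were coupled more loosely. The same measure gave r 0.485 and rho 0.448 in hepatocytes (2-sided permutation p 0.0224 and 0.0262, adjusted 0.0336 and 0.0393, r 0.466 without the 2 farthest libraries). In macrophages r was 0.324 and rho 0.366 (permutation p 0.119 and 0.0687, unchanged by adjustment, r 0.450 without the 2 farthest). Over the group means the genes most like Abca1 were Maml1, Omg and Zfp869 in hepatocytes (r from 0.855 to 0.873) and Acsl3, Nnt and Tkt in macrophages (r from 0.903 to 0.919). Those most like Abcg1 in macrophages were Il10rb, Gngt2 and Prdx5 (r from 0.937 to 0.959), each over 12 group means and with no test.

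In macrophages Abcg5 and Abcg8 were far down the ranking, 4714 and 3504 of 13947, against 1503 and 1231 of 13326 in hepatocytes. Abcg8 in Control macrophages measured 91.9, 104 and 146 RPKTM at ZT4, 47.2, 37.5 and 52.4 at ZT10, 18.3, 18.3 and 45.6 at ZT16 and 11, 20.2 and 63.1 at ZT22. Every ZT4 library exceeded every library of the other times. Abcg5 measured 82.2 ± 32.2 RPKTM at ZT4 and 24.8 ± 22.7 at ZT22 (SD, n = 3 each) and passed no test of a daily pattern without a covariate. No genotype difference was called for either gene in macrophages, but with the macrophage marker covariate RevScapTKO was below Control for Abcg5 (-0.68, adjusted p 0.0373). Hepatocyte RNA was present in these libraries, and its part in the levels of both genes was not tested.

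Mylip (NM_153789, mm9 chr13:45485111-45507309, plus strand) rose toward the night in hepatocytes. In Control it measured 16.4, 17.7 and 26.3 RPKTM at ZT4, 37.1, 27.9 and 35.0 at ZT10, 36.5, 79.4 and 69.7 at ZT16 and 64.4, 61.8 and 78.6 at ZT22. Every ZT22 library thus lay above every light phase library. RevDKO and RevScapTKO hepatocytes had overlapping ranges (23.1 to 83.0 and 18.2 to 85.8 RPKTM) and no genotype difference was called.

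In macrophages Mylip was lowest in RevScapTKO. It ranged from 71.7 to 189 RPKTM (median 133) in Control, 76.2 to 183 (median 125) in RevDKO and 30.6 to 134 (median 80.7) in RevScapTKO. The differences were -0.66 log2 units from RevDKO (SE 0.19, limma adjusted p 0.0416) and -0.70 from Control (SE 0.19, adjusted p 0.0244), lower at all 4 times, with 5 of 12 libraries below every library of either other group. Both calls were fragile: leaving out 1 library lost that against RevDKO in 15 of 36 fits (largest adjusted p 0.0953, without RevScapTKO at ZT16 replicate 3) and that against Control in 6 (largest 0.0667, without RevScapTKO at ZT4 replicate 3). Without the 3 libraries rich in Alb the values were -0.66 (adjusted p 0.0639) and -0.64 (adjusted p 0.105). With the hepatocyte marker covariate they were -0.76 (adjusted p 0.0148) and -0.73 (adjusted p 0.00834).

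**Figure D3:**
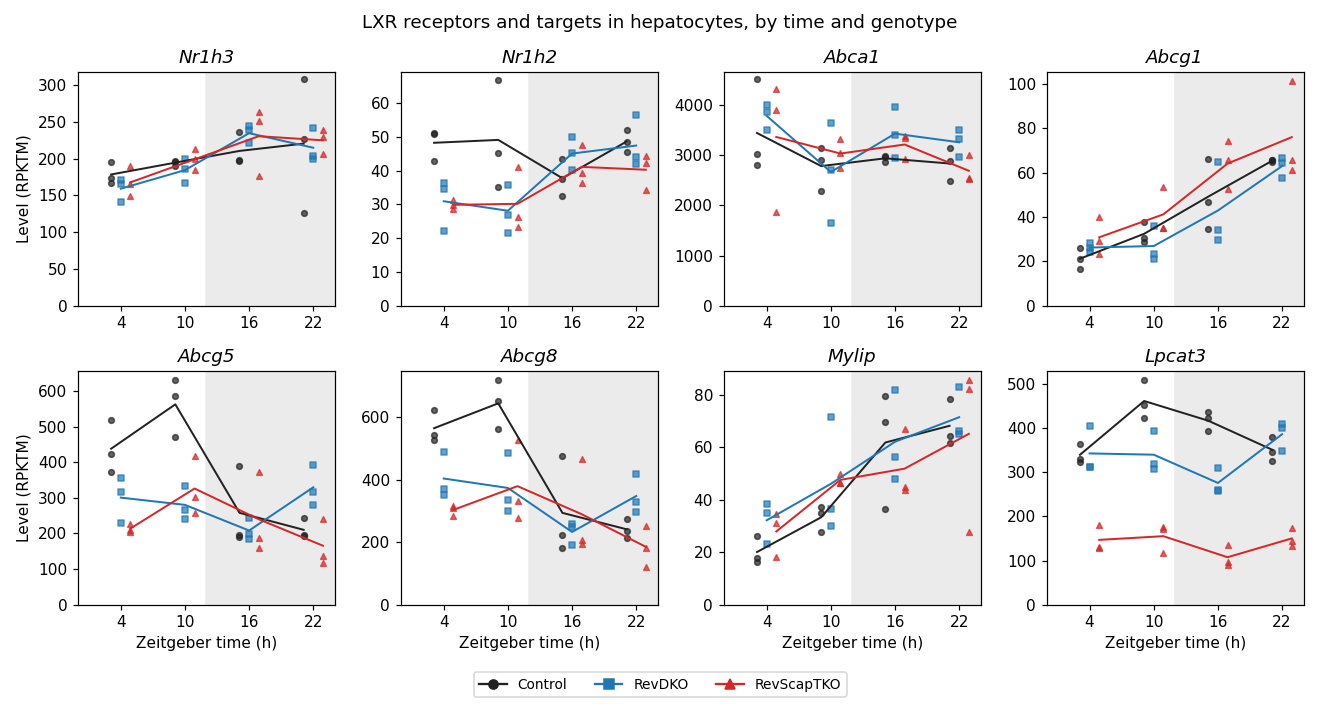
Level of each of the 8 genes (RPKTM, vertical axis from 0) against zeitgeber time (hours, horizontal axis, dark phase shaded) in hepatocytes. Points are libraries, shifted sideways by genotype, and lines join the means of 3 libraries. Lpcat3 of RevScapTKO lies apart from both other genotypes, and the ZT10 peak of Abcg5 and Abcg8 stands above the others in Control.

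**Figure D4:**
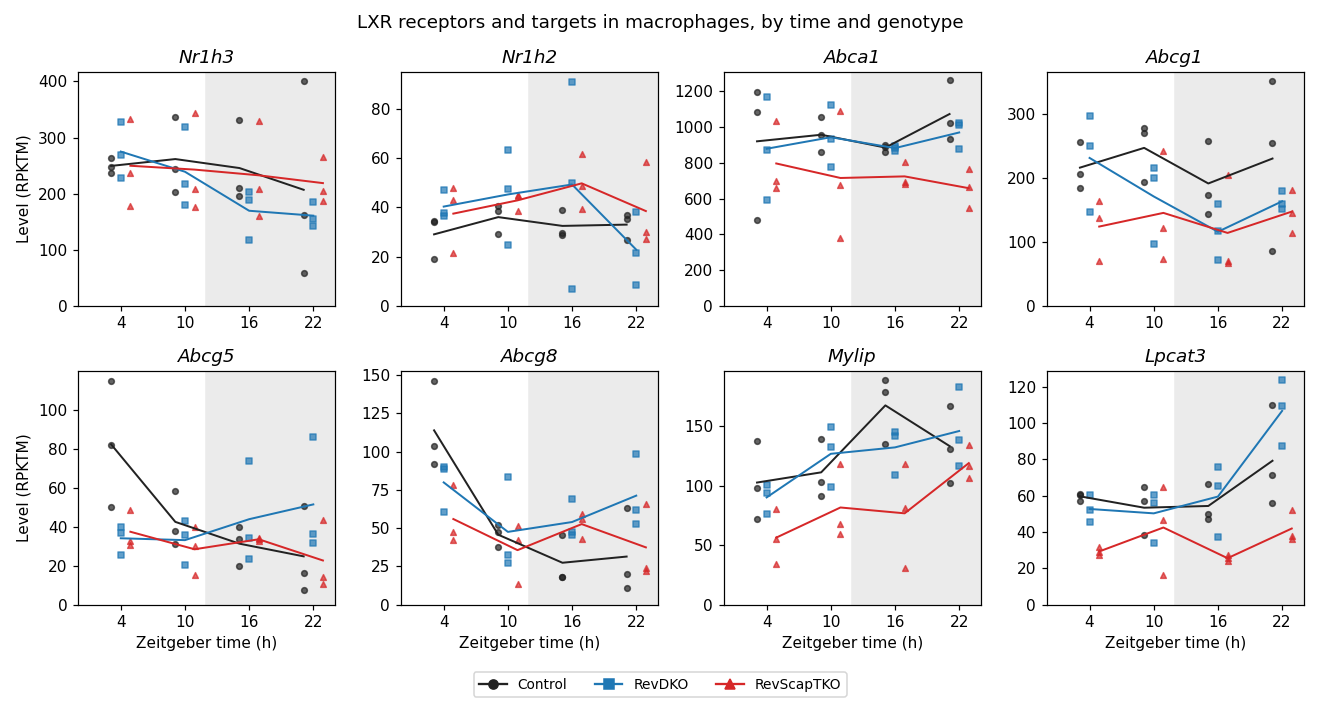
The same plot for liver macrophages, with level (RPKTM, vertical axis from 0) against zeitgeber time (hours). Lpcat3 and Mylip of RevScapTKO have the lowest mean at all 4 times, and Abcg8 of Control is highest at ZT4.

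Between Control and RevDKO no member was called in either cell type. In hepatocytes 4.43% of genes were called, and 3 members (Nr1h2, Abcg5 and Lpcat3) had an unadjusted p under 0.05 by limma, with an adjusted p of at least 0.163. The 4.43% is a share at the adjusted p. The share of all genes at the unadjusted p is not given here, so these 3 are not read as an excess. In macrophages 0.574% of genes were called and 0 members had an unadjusted p under 0.05. The 95% interval of the hepatocyte difference of Lpcat3 ran from -0.41 to -0.04 log2 units, and that of Abcg5 from -0.57 to -0.0010. The contrasts share libraries: RevDKO enters 2 of them and so does Control, and their values are given side by side for that reason.

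The members' daily pattern was tested in 2 ways, by a limma F test over the 4 times and by JTK_CYCLE, a rank test for 24 h patterns that the study used. In JTK_CYCLE the time series was entered 2 times in a row, following the study, which makes small p-values smaller without adding data. Its p is adjusted over the 7 patterns tried for a gene, not over genes, and a gene counted as rhythmic where it was under 0.05 and the highest time mean exceeded the lowest by over 1.5 times. In Control hepatocytes 4 of 8 members were rhythmic, where 24.2% of genes were: Abcg8 (estimated peak ZT7, adjusted p 0.00126), Abcg5 (ZT10, 0.00201), Mylip (ZT16, 0.00201) and Abcg1 (ZT19, 0.00313). Their highest time means exceeded the lowest by 2.67, 2.68, 3.40 and 3.08 times. Lpcat3 and Nr1h3 met the p (0.00126 and 0.0447) but not the ratio (1.36 and 1.24).

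The limma F test called the same 4 genes in Control hepatocytes, with adjusted p of 0.00155 for Abcg1, 0.00280 for Abcg5, 0.00296 for Abcg8 and 0.00421 for Mylip, where 6.61% of genes were called. The rise of the macrophage markers from ZT4 to ZT22 in these libraries has the same direction as that of Abcg1 and Mylip and the opposite direction to the fall of Abcg5 and Abcg8. With their mean level as a covariate none of the 4 was called (adjusted p 0.505, 0.323, 0.366 and 0.352 in the order just given). Of all 13326 genes 195 were called in that fit, against 881 without the covariate. With the series entered once in JTK_CYCLE, none was rhythmic (lowest adjusted p 0.0697), where 4.36% of genes were.

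In RevDKO hepatocytes JTK_CYCLE called Nr1h2 (ZT19), Abcg1 (ZT19), Abcg8 (ZT4) and Mylip (ZT19), where 24.1% of genes were called. Abcg8 alone was called with the series entered once (adjusted p 0.0418), where 3.83% were. Abcg5 was not rhythmic (adjusted p 0.198), but was without RevDKO at ZT10 replicate 1 or at ZT4 replicate 3. The Mylip call was lost in 7 of the 12 fits without 1 library and the Nr1h2, Abcg1 and Abcg8 calls in 0. Nr1h2 in RevDKO measured 34.6, 22.03 and 36.2 RPKTM at ZT4, 35.7, 21.7 and 27.0 at ZT10, 40.2, 45.1 and 49.8 at ZT16 and 41.8, 56.3 and 44.1 at ZT22, so that all 6 dark phase libraries lay above all 6 light phase libraries.

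RevScapTKO hepatocytes had Abcg1 (ZT19), Abcg5 (ZT10) and Abcg8 (ZT10) rhythmic, where 14.3% of genes were, and 0 members with the series entered once, where 1.48% were. The Abcg5 and Abcg8 calls were lost without RevScapTKO at ZT10 replicate 1, ZT22 replicate 1 or ZT22 replicate 2. The F test called Abcg1 in RevDKO (adjusted p 0.0191) and RevScapTKO (adjusted p 0.0398), where 2.48% and 0.87% of genes were called, and no other member. With the macrophage marker covariate these adjusted p were 0.262 and 0.204.

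In macrophages the rhythmic members differed by genotype label, with no test of that difference passing. Control had Abcg8 (ZT4, ratio 4.16) and Mylip (ZT16, ratio 1.63), where 13.4% of genes were called (1703 genes, and 2713 without Control at ZT22 replicate 1, a library rich in Alb). RevDKO had Nr1h3 (ZT7, ratio 1.71), Abcg1 (ZT4, ratio 1.997) and Lpcat3 (ZT22, ratio 2.122), where 19.7% were. RevScapTKO had none, where 10.3% were. Leaving out 1 library lost the Mylip call in 4 of 12 fits, the Abcg1 call in 8 and the Lpcat3 call in 4, and the Abcg8 and Nr1h3 calls in 0.

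Lpcat3 in RevDKO macrophages measured 109, 123 and 87.1 RPKTM at ZT22, above all 9 libraries of the other times (34.1 to 75.9). Macrophage markers moved with time in these libraries too, with a median sum of 18300 RPKTM at ZT4 and 4959 at ZT22, and the part of this in the RevDKO calls of Nr1h3 and Abcg1 was not tested by JTK_CYCLE. The limma F test called 0 members in each of the 3 genotypes, with 2, 1 and 1 members at an unadjusted p under 0.05 in Control, RevDKO and RevScapTKO. At the adjusted p it called 0.0645%, 2.82% and 0.0645% of all genes there. Shares of all genes at the unadjusted p, and in the covariate fit that follows, are not set beside these counts. With the macrophage marker covariate it called Abcg5 and Abcg8 in Control (adjusted p 0.00398 and 0.000156) and Abcg8 in RevDKO (adjusted p 0.0196).

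The ScapKO libraries were normalized in tables of their own and hold no Control, so their values are set against each other alone. In hepatocytes the order of levels per length was Abca1 (4267 ± 832 RPKTM), Abcg8 (756 ± 338), Abcg5 (487 ± 164), Nr1h3 (418 ± 56.0), Lpcat3 (363 ± 55.3), Nr1h2 (109 ± 21.2), Abcg1 (55.3 ± 46.6) and Mylip (48.0 ± 41.7) (SD, n = 12 each). Abcg5, Nr1h3 and Lpcat3 lay within 1 SD of Abcg5 of each other, and so did Abcg1 and Mylip. In macrophages the order was Abca1 (4960 ± 1360), Nr1h3 (1869 ± 466), Abcg1 (1624 ± 365), Mylip (380.0 ± 83.2), Nr1h2 (284 ± 45.2), Lpcat3 (197 ± 32.1), Abcg8 (142 ± 159) and Abcg5 (118 ± 163). Nr1h3 and Abcg1 lay within 1 SD of each other, and Abcg8 and Abcg5 did too.

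The ScapKO library at ZT22 replicate 2 stood apart in both cell types. In hepatocytes it held 1006 RPKTM of Scap, against 205 to 379.6 in the other 11, and a macrophage marker sum of 2587 against 361.5 to 1141. Its Abcg1 was 191 (others 28.2 to 93.1) and its Mylip 176 (others 20.7 to 53.1). In macrophages its macrophage marker sum was 16620 against at least 61490 in the others, its Abcg5 was 556 (others 9.84 to 327) and its Nr1h3 776 (others 1418 to 2688). Without it the means were 42.9 ± 19.5 RPKTM for Abcg1 and 36.3 ± 11.2 for Mylip in hepatocytes, and 77.9 ± 91.4 for Abcg5, 107 ± 108 for Abcg8, 1969 ± 329 for Nr1h3 and 1711 ± 217 for Abcg1 in macrophages (SD, n = 11 each).

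**Figure D5:**
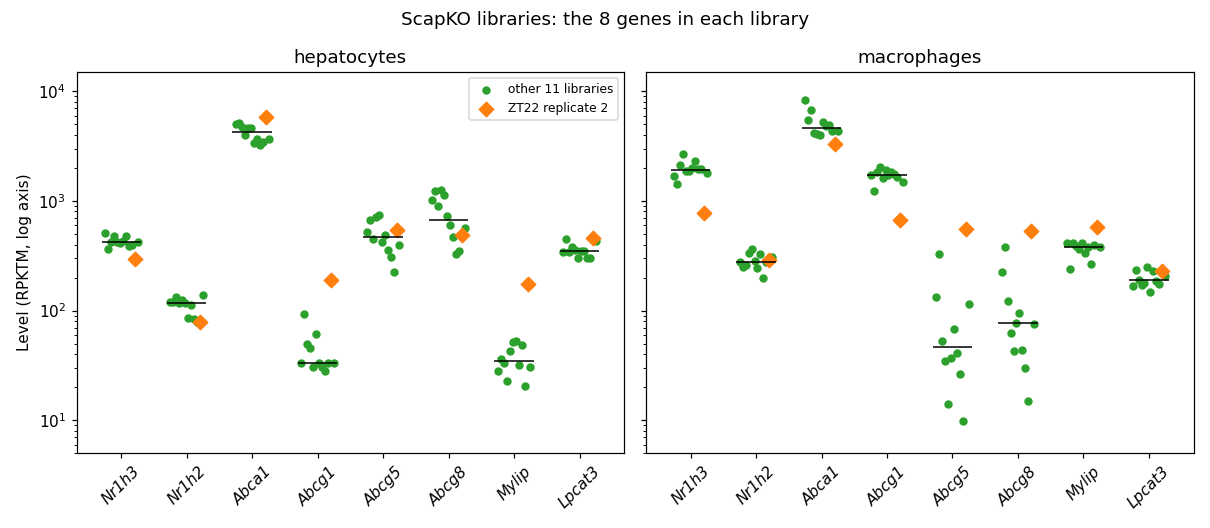
Level of the 8 genes (RPKTM, log axis) in each ScapKO library of hepatocytes (left) and macrophages (right), with a line at the median of 12. Diamonds mark ZT22 replicate 2, which is the highest hepatocyte library for Abcg1 (191) and Mylip (176) and the highest macrophage library for Abcg5 (556) and Abcg8 (526).

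The bile exporter Abcg8 followed the time of day in ScapKO hepatocytes. It measured 1026, 1222 and 897 RPKTM at ZT4, 1255, 1129 and 731 at ZT10, 607, 473 and 325 at ZT16 and 351, 493 and 565 at ZT22, with every light phase library above every dark phase library. JTK_CYCLE called it (ZT7, adjusted p 0.00126) where 14.6% of genes were called. With the series entered once neither Abcg8 (adjusted p 0.0697) nor any other member was called, where 2.67% of genes were. Without ZT22 replicate 2 Abcg8 was still called (adjusted p 0.00251) and Abcg1 and Abcg5 were called as well (adjusted p 0.0163 each). Abca1 had a JTK_CYCLE adjusted p of 0.000781 and a ratio of 1.45, under the limit, which it passed without ScapKO at ZT16 replicate 2.

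In ScapKO macrophages no member was rhythmic, where JTK_CYCLE called 15.1% of genes and the limma F test 0%, with 1 member, Abca1, at an unadjusted p under 0.05. The share of all genes at that unadjusted p is not given here. The JTK_CYCLE count over all genes, 2170, was 3549 without ZT22 replicate 1 and 1259 without ZT22 replicate 2. Abca1 there measured 8275, 5426 and 6717 RPKTM at ZT4 and between 3270 and 5205 in the 9 other libraries, so that its ZT4 libraries were the 3 highest.

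Genes around the receptors were counted from lists, beside 26.2% of all genes called between RevScapTKO and RevDKO hepatocytes. Of 6 LXR partners and corepressors, 1 was higher and 0 lower in RevScapTKO than in RevDKO hepatocytes: Ncor1, a corepressor, by 0.36 log2 units (604 to 779 RPKTM, limma adjusted p 0.00101). Its value with the macrophage marker covariate was 0.29 (adjusted p 0.189), and 0 of 6 were called in that fit, where 350 of 13326 genes were. Rxra and Rxrb, the partners, were not called in any contrast. The list median was 0.14 beside -0.03 over all genes, and 0 of 6 were called between RevDKO and Control, where 4.43% of all genes were called in hepatocytes. Against Control, Ncor1 (0.30, adjusted p 0.00259) and Nrip1 (0.275, adjusted p 0.0119), another corepressor, were higher in RevScapTKO hepatocytes, and Ncor1 in RevScapTKO macrophages (0.39, adjusted p 0.0350). In hepatocytes with the macrophage marker covariate Nrip1 was called (adjusted p 0.0403) and Ncor1 was not (adjusted p 0.228), and without the 3 libraries rich in Alb the macrophage value of Ncor1 was 0.37 (adjusted p 0.0626).

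Of 6 listed enzymes of oxysterol and desmosterol metabolism, 4 were tested in hepatocytes. The following 3 were called between RevScapTKO and RevDKO there, where 26.2% of all genes were called, and the other is not reported here. Cyp27a1, which makes 27-hydroxycholesterol, was at 1264 RPKTM in RevScapTKO against 2102 in RevDKO (-0.82, limma adjusted p 0.000335), and Cyp46a1, a brain cholesterol hydroxylase, at 2.38 against 6.90 (-1.39, adjusted p 0.000422). Cyp7b1, which breaks down oxysterols, was at 1754 against 749.5 (1.20, adjusted p 0.000794). Cyp7b1 was still called with the macrophage marker covariate (1.41, adjusted p 0.0189), while Cyp27a1 (-0.65, adjusted p 0.125) and Cyp46a1 (-0.76, adjusted p 0.352) were not. Against Control, where 35.9% of all genes were called, these genes differed in the same directions. With the covariate Cyp27a1 (adjusted p 0.0231) and Cyp7b1 (adjusted p 0.0166) were called against Control and Cyp46a1 (adjusted p 0.905) was not. In macrophages Cyp27a1 was lower in RevScapTKO than in RevDKO (-1.15, adjusted p 0.000165) and Control (-0.95, adjusted p 0.00201), where 3% and 3.76% of all genes were called. Between RevDKO and Control none of these 3 genes was called by limma in either cell type, where 4.43% of all genes were called in hepatocytes and 0.574% in macrophages.

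Of 16 other LXR targets, 3 were higher and 6 lower in RevScapTKO than in RevDKO hepatocytes (median -0.22), where 26.2% of all genes were called. The largest changes were those of lipid synthesis genes that SREBPs also activate: Scd1, a fatty acid desaturase, at 15.4 against 9876 RPKTM (-8.91, adjusted p 1.63e-22), Fasn, fatty acid synthase, at 266 against 7715 (-4.67, adjusted p 1.01e-15), and Srebf1, the gene of SREBP-1, at 133 against 2064 (-4.07, adjusted p 2.61e-17). Cd5l, a gene known from macrophages, was higher by 1.423 (adjusted p 0.000197). With the macrophage marker covariate 0 of 16 were higher and 5 lower, where 350 of 13326 genes were called. The same 3 lipid genes were lower in RevScapTKO than in RevDKO macrophages, with log2 differences of -4.63 for Scd1, -4.16 for Fasn and -3.17 for Srebf1 (adjusted p at most 7.91e-13), in libraries that hold hepatocyte RNA. With the hepatocyte marker covariate 4 of 16 targets were lower, where 1519 of 13947 genes were called. Against Control, 4 of the 16 were higher and 6 lower in RevScapTKO hepatocytes, where 35.9% of all genes were called, and 0 higher and 3 lower in macrophages, where 3.76% were. Between RevDKO and Control hepatocytes, where 4.43% of all genes were called, 1 of 16 was called, Lpl, the lipoprotein lipase gene, at 227 against 39.0 RPKTM (adjusted p 3.39e-12).

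Of 8 genes of cholesterol acceptors and sterol handling, 1 was higher and 2 lower in RevScapTKO than in RevDKO hepatocytes, where 26.2% of all genes were called. Soat1, a cholesterol esterifying enzyme, rose by 0.85 (adjusted p 0.000641), and Cyp27a1, counted in this list too, and Apoa1, the acceptor for ABCA1 (-0.45, adjusted p 0.0281), fell. With the macrophage marker covariate 0 of the 8 were called, where 350 of 13326 genes were. In macrophages Cyp27a1 alone was called, lower in RevScapTKO against RevDKO and against Control, where 3% and 3.76% of all genes were called. Between RevDKO and Control 0 of the 8 were called in either cell type, where 4.43% of all genes were called in hepatocytes and 0.574% in macrophages.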

How the data were processed

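The authors removed ribosomal RNA, made stranded total RNA libraries, aligned reads to mm9 with STAR and measured RefSeq transcripts with Homer (versions, and whether counting used the strand, are not given in the sources used here). The deposited values are RPKM multiplied by 10 (RPKTM), quantile normalized within each of 4 tables by the authors, so tests stayed within a table, a shift of most genes would be hidden, and depth is unknown. Levels used the transcript with the highest mean. For ScapKO hepatocytes the titles were followed, although the cell type field names macrophages. Replicates are biological replicates per the methods.

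The log2(RPKTM + 1) values of 36 libraries (12 for ScapKO), a scale that understates changes of low genes, were fitted in limma (version 3.58.1, under R version 4.3.3) with 1 mean per genotype and time and a trended prior variance. Benjamini-Hochberg adjustment ran over all genes tested, threshold 0.05. JTK_CYCLE was rewritten in Python (3.11.15, with scipy 1.17.1, numpy 2.4.6 and pandas 2.3.3) for periods of 18 and 24 h. Correlations used 100000 permutations within groups. Simulated data were used for the limma mean level and changed-rhythm tests of RevDKO minus Control and for JTK_CYCLE in Control hepatocytes. The F test over time, the other contrasts, the alternative limma fits and the correlations were not tested in this way. The members, lists and tests were chosen with earlier results of these data known. All 8 members are named, and of each list the called genes of largest change, up to 4 per contrast. Alternatives were pseudocounts of 0.1 and 5, no filter, every transcript, marker covariates, pairs of genotypes alone, a replicate block and leaving out libraries. The covariate of macrophage markers in macrophages and the fits without 3 libraries were chosen after seeing the data. Results for some genes of the lists are not reported here.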

Additional observations from a re-analysis of the deposited data

How the results depend on the processing

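Lpcat3 kept its calls in RevScapTKO of both cell types in all alternatives. The number of the 8 members called moved elsewhere. For RevScapTKO minus Control in hepatocytes it was 5, and 1 with the macrophage marker covariate (4 to 5 without 1 library). For RevScapTKO minus RevDKO in hepatocytes it was 2, and 1 with that covariate (1 to 4 without 1 library). Abcg1 reversed in both, to -0.144 and -0.0516. In macrophages RevScapTKO minus Control gave 2, but 4 with the hepatocyte or the macrophage marker covariate, 1 with only the 2 genotypes and 1 without the 3 libraries rich in Alb (1 to 4 without 1 library). RevScapTKO minus RevDKO in macrophages gave 2, but 4 with the hepatocyte marker covariate and 1 with no filter, with only the 2 genotypes or without the 3 libraries (1 to 2 without 1 library). The changed rhythm of RevDKO minus Control in hepatocytes gave 0, but 1 with only the 2 genotypes (0 to 0 without 1 library).

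Rhythmic members in hepatocytes numbered 4 in Control and 0 with the series entered once (4 to 4 without 1 library), 4 in RevDKO and 1 with the F test or entered once (3 to 5), 3 in RevScapTKO, 1 with the F test, 5 with no ratio limit and 0 entered once (1 to 4), and 1 in ScapKO, 2 with no ratio limit and 0 entered once (1 to 3). In macrophages they numbered 2 in Control and 0 with the F test or entered once (1 to 3), 3 in RevDKO and 0 with either (1 to 4), 0 in RevScapTKO (0 to 1), and 0 in ScapKO and 1 with no ratio limit (0 to 3). The cause of these changes was not tested.

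Libraries of the same replicate number had a mean correlation of deviations of 0.0379 in hepatocytes and 0.0898 in macrophages, with pairs down to -0.273 and -0.199. Libraries of other numbers had means of -0.0188 and -0.0444, with pairs up to 0.355 and 0.382. Whether the numbers pair libraries was not tested. The replicate block called 3 members rather than 2 for RevScapTKO minus Control in macrophages, adding Abcg1 (adjusted p 0.011), and it raised the count of all genes there from 524 to 836 and for RevDKO minus Control from 80 to 167.

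Counts over all genes moved by over 1.5 times in settings that include the following. With every transcript fitted, the hepatocyte counts went from 590 to 1086 for RevDKO minus Control, from 4789 to 9197 for RevScapTKO minus Control and from 3498 to 6791 for RevScapTKO minus RevDKO, and the last 2 fell to 813 and 350 with the macrophage marker covariate. In macrophages RevScapTKO minus Control went from 524 to 963 with every transcript and 1205 with the hepatocyte marker covariate, RevScapTKO minus RevDKO from 419 to 652, 1519 and, with the macrophage marker covariate, 744, and RevDKO minus Control from 80 to between 41 and 53 with no filter, a pseudocount of 0.1, the hepatocyte covariate or without the 3 libraries. The changed rhythm of RevDKO minus Control in hepatocytes went from 27 to 47 with only the 2 genotypes. The F test over time in Control went from 881 to 195 with the macrophage marker covariate in hepatocytes and from 9 to 290 in macrophages. Rhythmic genes in JTK_CYCLE fell in every group with the series entered once, as from 3123 to 564 in Control hepatocytes and from 2170 to 282 in ScapKO macrophages, and went from 1905 to 3151 in ScapKO hepatocytes with no ratio limit, from 1703 to 2713 in Control macrophages without ZT22 replicate 1, and from 2170 to 3549 or 1259 in ScapKO macrophages without ZT22 replicate 1 or 2. Depth is unknown, and 3 libraries per group limit the precision.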
